A study of Mus musculus with 16 samples.

Results

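The NMDA receptor is a glutamate-gated cation channel of excitatory synapses, and the mRNAs of its 7 subunit genes were followed in cultured mouse hippocampal neurons. The genes are Grin1, Grin2a, Grin2b, Grin2c, Grin2d, Grin3a and Grin3b, chosen by name, and all 7 were found among the 55385 genes of the deposited tables. The cultures came from the dissociated hippocampi of newborn C57BL/6N mice and were infected with recombinant adeno-associated virus. RNA was sequenced from 16 libraries in 4 groups of 4, which were Control-shRNA baseline, Control-shRNA bicuculline, Dnmt3a1-shRNA baseline and Dnmt3a1-shRNA bicuculline. Control-shRNA is the non-targeting hairpin. Dnmt3a1-shRNA lowers Dnmt3a1, the long isoform of the de novo DNA methyltransferase Dnmt3a, and the construct used for these cultures was Dnmt3a1-shRNA2. Bicuculline, a GABA-A receptor blocker that drives bursts of action potentials, was applied for 4 h, and the baseline cultures did not receive it. Both shRNA groups thus carry a virus and an shRNA, and no library came from uninfected cells. The hairpins were expressed from the U6 promoter, which is active in any cell type, and the RNA came from whole cultures, so that fewer cells of a type and less RNA per cell cannot be told apart. The 4 libraries of a group are described as independent preparations.

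An NMDA receptor needs glutamate and a co-agonist, glycine or D-serine, and opens only when depolarisation relieves its magnesium block, which makes it a detector of coincident activity. Each receptor is a tetramer that contains the obligatory GluN1 subunit, encoded by Grin1. GluN2 subunits, encoded by Grin2a to Grin2d, bind glutamate and set channel kinetics and magnesium sensitivity, whereas the GluN3 subunits of Grin3a and Grin3b bind glycine and lower calcium permeability. In the developing forebrain GluN2B and GluN3A predominate early, and GluN2A rises as synapses mature.

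The libraries held between 28912697 and 29586355 estimated counts, so depth hardly differed between them. In Dnmt3a1-shRNA, Dnmt3a fell by 2.81 on the log2 scale in baseline (SE 0.06, adjusted p = 8.86e-15), from 312 ± 13.8 CPM to 44.5 ± 3.66 CPM (mean ± SD, n = 4 each). CPM here is the count of a gene relative to the TMM-scaled size of its library. Fos, Arc and Npas4, which neurons induce within minutes to hours of activity, were between 5.64 and 7.32 higher with bicuculline in Control-shRNA on the log2 scale. After the knockdown in baseline Fos was 0.58 higher (adjusted p = 0.0437, edgeR). Npas4 (0.61, adjusted p = 0.0712) and Arc (-0.39, adjusted p = 0.311) did not pass there. The paper describes these genes as not altered by the knockdown. The part of this Fos difference in the results below was not tested. Neuronal markers summed to 6121 to 8435 CPM per library, astrocyte markers to 713 to 1136 CPM, and each of the microglial markers Cx3cr1, P2ry12, Tmem119, Aif1, C1qa and Trem2 lay under 1 CPM in every group mean. The share of mitochondrial counts was 2.80% to 4.75% in Control-shRNA baseline, 3.34% to 5.86% in Control-shRNA bicuculline, 2.73% to 5.99% in Dnmt3a1-shRNA baseline and 3.58% to 6.60% in Dnmt3a1-shRNA bicuculline. At the same replicate number it was higher with bicuculline in 3 of 4 numbers of Control-shRNA and 4 of 4 of Dnmt3a1-shRNA, and higher in the knockdown in 3 of 4 in baseline and 4 of 4 with bicuculline. Its part in the results below was not tested. Libraries with the number 2 stood apart from the others of their group for several subunits, as described below.

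On GRCm38, Grin1 lies on the minus strand at chr2:25291181-25319187, Grin2a at chr16:9567898-9995560 on the same strand and Grin2b, also on the minus strand, at chr6:135713233-136173511. Grin2c (chr11:115249169-115267243), Grin2d (chr7:45831883-45878378) and Grin3a (chr4:49661611-49845744) are likewise minus-strand genes. Grin3b is the exception and lies on the plus strand at chr10:79970715-79977190. Grin3b shares exon sequence with the antisense gene Tmem259, which reached a mean of 130 CPM against under 1 CPM for Grin3b. Strandedness of the libraries was not given in the sources used here, so reads of Grin3b and Tmem259 may not be separable, and Grin3b values are uncertain for that reason. Grin1 overlaps the exons of Grin1os, an antisense RNA at 2.24 CPM on average. Grin2d shares exon sequence with Gm45441 at 7.90 CPM, while the exon partners of Grin2b and Grin2c all averaged under 1 CPM.

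Dnmt3a methylates cytosine in CpG dinucleotides, so the stretch just before the start of a subunit gene is shown for the members that changed in a comparison below and are in the RefSeq promoter table. These are Grin1 and Grin3b, and 4 of the 7 members are in the table, with Grin2a, Grin2b and Grin3a not among them. In the edgeR test of the groups below, Grin1 and Grin3b passed only in comparisons of bicuculline with baseline. Grin3a, the only member that passed there after the knockdown, has no window here. Each sequence gives the 250 bases before the RefSeq start, 5′ to 3′ on the strand of the gene, from GRCm38.p6, with every CpG in capitals. The Grin1 window is chr2:25319188-25319437 on the minus strand and the Grin3b window is chr10:79970474-79970723 on the plus strand.
Grin1: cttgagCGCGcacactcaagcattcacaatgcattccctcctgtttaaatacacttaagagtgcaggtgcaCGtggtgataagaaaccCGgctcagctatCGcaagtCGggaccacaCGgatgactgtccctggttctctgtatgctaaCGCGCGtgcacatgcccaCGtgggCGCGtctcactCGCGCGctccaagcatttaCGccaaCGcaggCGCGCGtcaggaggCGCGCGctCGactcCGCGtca
Grin3b: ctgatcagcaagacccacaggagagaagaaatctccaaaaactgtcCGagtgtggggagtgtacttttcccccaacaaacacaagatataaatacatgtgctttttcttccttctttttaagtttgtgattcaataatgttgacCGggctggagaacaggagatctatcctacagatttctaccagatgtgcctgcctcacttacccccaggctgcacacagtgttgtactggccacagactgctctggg
The Grin1 window is dense in capitals, above all in its last stretch, and the Grin3b window is nearly free of them.
The Grin1 window held 27 CpG, and 92.7% of the 27025 windows of the same length held as many or fewer. Grin2c had 15 CpG and Grin2d 9, compared with a median of 6 over all windows. The Grin2d window, chr7:45866682-45866931, lies before its RefSeq start but inside the Grin2d span given above. Only 2 CpG lay before Grin3b, a count reached or undercut by 29.6% of windows. The half-site of the cAMP response element, TGACG, searched on both strands, occurred 2 times before Grin1 and not before the other 3, and 17.9% of all windows held it. The GC box GGGCGG, searched likewise, occurred 2 times before Grin2c and not before the others, with 32.9% of all windows holding it. These matches are letters in a window, and no methylation or binding was measured in these libraries.

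The subunits fell into 3 tiers when levels were compared per transcript length, in TPM, which scales counts by transcript length and library total. Grin1 was the highest in every library, at 260 ± 22.9 TPM (SD, n = 16, range 219 to 300). Grin2b followed at 40.1 ± 10.01 TPM, with Grin2d at 22.7 ± 3.23 TPM, Grin3a at 18.4 ± 3.77 TPM and Grin2a at 17.2 ± 3.22 TPM. Grin3b and Grin2c were close to absent, at 0.318 ± 0.186 TPM and 0.197 ± 0.128 TPM. Grin1 exceeded Grin2b without overlap, and Grin2a exceeded Grin3b without overlap, so the tiers were separate in all 16 libraries.

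Within the middle tier the order was less firm. Grin2b exceeded Grin2d in 16 of 16 libraries, although their ranges over libraries overlapped. Grin2d exceeded Grin3a in 13 of 16 libraries, the exceptions being 3 of the 4 Dnmt3a1-shRNA baseline libraries. The order of Grin3a and Grin2a differed by shRNA. Grin2a was the higher in all 8 Control-shRNA libraries and Grin3a in all 8 Dnmt3a1-shRNA libraries. Their ranges did not overlap in Control-shRNA bicuculline, at 16.9 to 18.6 TPM for Grin2a and 13.6 to 15.6 TPM for Grin3a, nor in Dnmt3a1-shRNA baseline, at 9.51 to 17.5 TPM and 19.7 to 27.0 TPM, and they overlapped in the other 2 groups. In the bottom tier Grin3b exceeded Grin2c in 11 of 16 libraries. The lowest tier rested on 2 to 28 estimated counts per library for Grin3b and 3 to 31 for Grin2c, whereas Grin1 had at least 13591 in every library. In Control-shRNA baseline Grin1 made up 71.0% ± 1.16 of the summed TPM of the 7 genes (SD, n = 4).

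**Figure D1:**
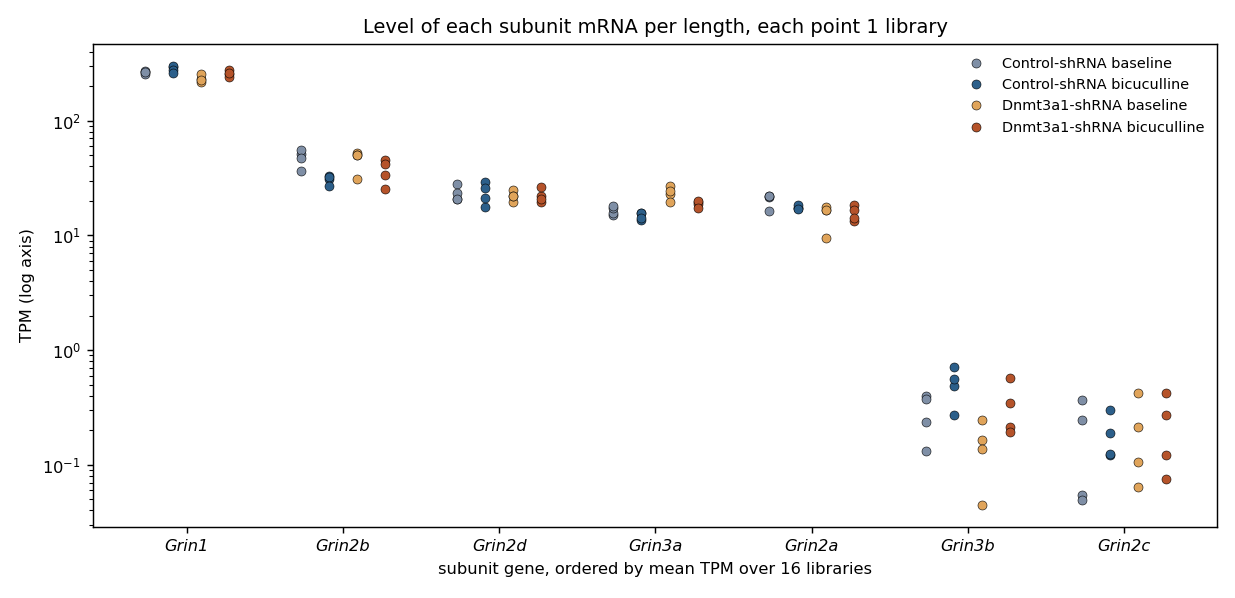
Level of each NMDA receptor subunit mRNA in TPM on a log axis, with the genes ordered by their mean over 16 libraries and each point 1 library, coloured by group. Grin1 lies between 219 and 300 TPM, Grin2b, Grin2d, Grin3a and Grin2a form a middle tier, and Grin3b and Grin2c lie under 1 TPM in every library.

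To ask whether burst firing alters the subunits, bicuculline was compared with baseline in Control-shRNA. Grin1, the obligatory subunit, rose and Grin2b, the GluN2 subunit of immature synapses, fell, and no other member passed the test. Of the 7 members 1 rose and 1 fell at an adjusted p under 0.05 (edgeR quasi-likelihood test over 17222 genes), compared with 19.5% of all tested genes rising and 21.9% falling. Groups did not overlap for 2 of the 7 members, against 39.7% of all genes. None of the members also passed a log2 fold change of 0.5, which 21.9% of genes did. The median log2 fold change of the members was 0.21, beside 0.01 over all genes.

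Grin1 was at 539, 474, 476 and 509 CPM in the Control-shRNA baseline libraries 1 to 4 and at 698, 652, 577 and 565 CPM with bicuculline. All 4 bicuculline libraries were above all 4 baseline libraries. The log2 fold change was 0.32 (SE 0.07, 95% interval 0.17 to 0.47, adjusted p = 0.00121, edgeR).

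Grin2b was at 566, 368, 536 and 505 CPM in baseline and at 368, 366, 361 and 306 CPM with bicuculline. Baseline library 2 was far below the other 3 and only just above the highest bicuculline library, so the groups did not overlap but nearly touched. Grin2b fell by 0.50 on the log2 scale (SE 0.18, 95% interval -0.88 to -0.11, adjusted p = 0.0315, edgeR). Without bicuculline library 3 or 4, or without baseline library 1, 3 or 4, the adjusted p was between 0.0525 and 0.0928. Without the number 2 libraries of all groups, a choice made after the data were seen, the fall was 0.64 with an adjusted p of 0.00392.

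The scale matters for these values, since most genes shifted together. In TPM, without rescaling between libraries, the median gene lay 0.20 lower with bicuculline in either shRNA, and Grin1 differed by 0.10 in Control-shRNA (adjusted p = 0.231, limma) and by 0.15 in Dnmt3a1-shRNA (adjusted p = 0.0692). Relative to that median Grin1 was 0.30 higher in Control-shRNA and 0.35 higher in Dnmt3a1-shRNA. Grin2b was 0.42 lower than the median gene in Control-shRNA. The rise of Grin1 is therefore a rise relative to the median gene. Of 6 neuronal markers, 3 rose (Rbfox3, Snap25 and Stmn2) and 1 fell (Tubb3) with bicuculline in Control-shRNA, against 19.5% and 21.9% of all genes. Their median log2 fold change was 0.21, with Snap25 at 0.36, and groups did not overlap for 6 of 6, against 39.7%. Whether Grin1 rose relative to neuronal mRNAs in general was not tested.

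The other 5 members did not pass. Grin3b, a GluN3 subunit best known from motor neurons, differed by 0.94 (SE 0.37, adjusted p = 0.0518) on 6.3 to 16.9 counts in baseline and 12.8 to 27.9 with bicuculline. Grin2d, a GluN2 subunit enriched in interneurons, differed by 0.21 (95% interval -0.05 to 0.47, adjusted p = 0.170). For Grin2a, the GluN2 subunit of mature synapses, the difference was -0.08 with an interval from -0.43 to 0.27. Grin3a differed by 0.03, with an interval from -0.13 to 0.20. Grin2c, which is typical of cerebellar granule cells, was too low for a statement, with an interval from -1.10 to 1.75. DESeq2 also called only Grin1 and Grin2b, and voom with limma called Grin3b as well (adjusted p = 0.0453). With the replicate number as a block, Grin2d (adjusted p = 0.0430) and Grin3b (adjusted p = 0.0293) passed as well, at log2 fold changes of 0.21 and 0.94. Among all genes, the block called 8756 in this comparison, against 7131 without it.

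**Figure D2:**
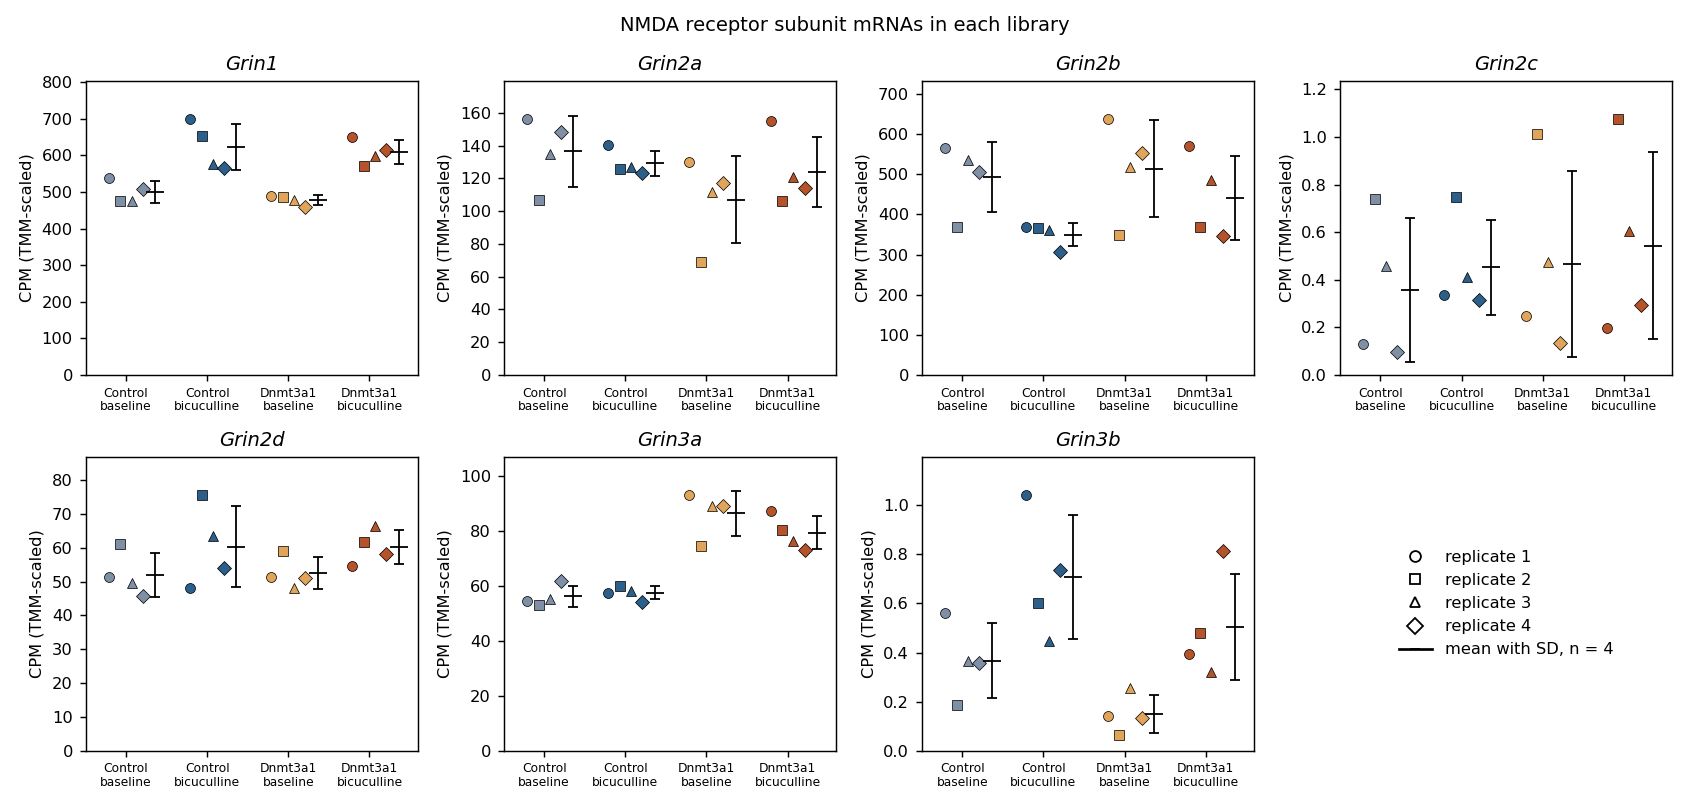
TMM-scaled CPM of each subunit (y axis, from 0) in the 4 groups, with 1 symbol per library, a shape for each replicate number and the mean with SD beside the points. Grin1 is higher in both bicuculline groups, Grin3a is higher in both Dnmt3a1-shRNA groups, and the squares of number 2 lie low for Grin2a and Grin2b in baseline and high for Grin2c.

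The same comparison was made in neurons with reduced Dnmt3a1. Grin1 rose again, Grin3b rose from very few counts, and Grin2b did not pass the test. Of the 7 members 2 rose and 0 fell by edgeR, against 20.8% and 25.2% of all genes, and 1 (Grin3b) also passed a log2 fold change of 0.5, against 25.8%. The groups did not overlap for 2 members, against 40.4% of genes. At an unadjusted p under 0.05 no member was lower either, and voom with limma and DESeq2 also called Grin1 and Grin3b.

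Grin1 was at 489, 486, 477 and 458 CPM in Dnmt3a1-shRNA baseline and at 651, 572, 599 and 614 CPM with bicuculline. Every bicuculline library was above every baseline library, by a wide margin compared with the spread within the groups. Its log2 fold change was 0.35 (SE 0.07, 95% interval 0.20 to 0.50, adjusted p = 4.33e-04, edgeR).

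Grin3b had 4.0, 2.3, 7.6 and 4.2 estimated counts in baseline and 9.7, 12.7, 9.3 and 22.0 with bicuculline, or 0.0654 to 0.254 CPM and 0.321 to 0.812 CPM. The groups did not overlap, but no baseline library reached 10 counts. The log2 fold change was 1.72 (SE 0.45, 95% interval 0.73 to 2.71, adjusted p = 0.00453). In limma on log2(TPM + 1) it was 0.21 with an adjusted p of 0.130, and a minimum of 10 counts in every library left the gene out. With only the 2 groups compared, Grin3b did not reach the filter on low counts either, so its place in the test came from the Control-shRNA libraries.

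Grin2b was at 637, 349, 517 and 553 CPM in Dnmt3a1-shRNA baseline and at 570, 368, 485 and 345 CPM with bicuculline. The groups overlapped, with 1 baseline library low and 2 bicuculline libraries high. The log2 fold change was -0.22, with a 95% interval from -0.60 to 0.16 (adjusted p = 0.339). Grin3a differed by -0.12 (adjusted p = 0.186) and Grin2a by 0.21 (adjusted p = 0.302), and neither passed. Without the number 2 libraries Grin3a was lower by 0.19 with an adjusted p of 0.0486.

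Whether the response to bicuculline depended on the shRNA was tested as an interaction. No member passed with edgeR, and none had an unadjusted p under 0.05. The background was 0% (0 of 17222 genes by edgeR and by voom with limma, 18 by DESeq2 and 3 with the replicate block, with 852 at an unadjusted p under 0.05 by edgeR). For Grin2b the difference between the responses was 0.28, with a 95% interval from -0.26 to 0.82, so its fall in Control-shRNA was not shown to differ from its value in Dnmt3a1-shRNA. For Grin1 the difference was 0.03, with an interval from -0.18 to 0.25. The interval for Grin3a was -0.39 to 0.07 and that for Grin2a -0.20 to 0.78.

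The knockdown and control groups were compared first in baseline. All knockdown libraries carry the same hairpin, so lower Dnmt3a1 and other effects of that hairpin cannot be told apart. Grin3a, which encodes the GluN3A subunit of immature and non-conventional receptors, rose, and the other 6 members did not pass. This was 1 of 7 members higher and 0 lower by edgeR, beside 8.12% of genes higher and 8.19% lower, and Grin3a also passed the log2 fold change of 0.5, as 5.83% of genes did. Of the 7 members 1 had groups that did not overlap, against 19.9% of all genes. At an unadjusted p under 0.05, Grin2a and Grin3b were lower, a level that 4967 of 17222 genes reached in either direction. Voom with limma and DESeq2 called only Grin3a.

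Grin3a was at 54.7, 53.2, 55.1 and 61.8 CPM in Control-shRNA baseline and at 93.2, 74.7, 89.2 and 89.0 CPM in Dnmt3a1-shRNA baseline. Each knockdown library was above each control library, and the lowest knockdown library was again number 2. The log2 fold change was 0.62 (SE 0.07, 95% interval 0.46 to 0.78, adjusted p = 2.15e-05, edgeR), a 1.54-fold rise. In TPM, too, it was 15.1 to 17.9 in the control and 19.7 to 27.0 in the knockdown. As a share of the summed TPM of the 7 genes, Grin3a went from 4.43% ± 0.33 to 6.91% ± 0.478 (SD, n = 4 each). Leaving out any 1 library gave values from 0.59 to 0.69.

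Grin2a was at 156, 107, 135 and 148 CPM in the control and at 130, 68.9, 112 and 117 CPM in the knockdown. Number 2 was the lowest library in either group, and the ranges overlapped. The log2 fold change was -0.35 (SE 0.16, 95% interval -0.70 to -0.00482, adjusted p = 0.151). With the replicate number as a block, Grin2a passed at -0.37 (adjusted p = 0.00858), as did Grin3b at -1.24 (adjusted p = 0.0452). Among all genes, the block called 4743 in this comparison, against 2809 without it. Without a block Grin3b was at -1.26 (adjusted p = 0.0743) on 2.3 to 7.6 counts in the knockdown and 6.3 to 16.9 in the control. It met the filter on low counts through other groups, where it was higher, so its blocked call is no evidence of a fall. Grin1 differed by -0.07, with an interval from -0.22 to 0.09. Grin2b was at 0.06 with an interval from -0.32 to 0.44, and Grin2d at 0.01 with one from -0.25 to 0.27.

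With bicuculline the knockdown was compared in the same way. Grin3a rose again, and no other member passed. By edgeR 1 of the 7 was higher and 0 were lower, beside 7.69% and 9.99% of all genes, and 0 also passed a log2 fold change of 0.5, against 5.89%. Groups did not overlap for 1 member, against 20.9% of genes. At an unadjusted p under 0.05 no member was lower, and voom with limma and DESeq2 also called only Grin3a.

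Grin3a was at 57.5, 60.1, 58.3 and 54.3 CPM in Control-shRNA bicuculline and at 87.3, 80.4, 76.6 and 73.2 CPM in Dnmt3a1-shRNA bicuculline. The groups were again fully apart. The log2 fold change was 0.46 (SE 0.07, 95% interval 0.30 to 0.63, adjusted p = 3.55e-04, edgeR), a 1.38-fold rise. Its 2 knockdown comparisons shared no libraries, but they shared the hairpin, the edgeR fit and the replicate numbers. Grin2b differed by 0.34 with an interval from -0.05 to 0.72 (adjusted p = 0.207), Grin2a by -0.06 and Grin1 by -0.03.

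Marker genes of the cell types in the culture were read beside Grin3a. The 6 neuronal markers summed to 6121 to 6850 CPM in Control-shRNA baseline and to 6851 to 8055 CPM in Dnmt3a1-shRNA baseline, and to 6873 to 7243 CPM and 7386 to 8435 CPM with bicuculline. Of the 6, 2 rose after the knockdown in baseline (Tubb3 and Stmn2), against 8.12% of all genes, and 1 with bicuculline (Stmn2), against 7.69%, with none at 0 in any group. Their median log2 fold change was 0.13 in baseline and 0.11 with bicuculline. None of the 8 astrocyte markers passed after the knockdown by edgeR. An unadjusted p under 0.05 was reached in either direction by 4967 of 17222 genes in baseline and 5367 with bicuculline. At that level 4 and 3 astrocyte markers were higher. Their medians were 0.40 and 0.42, and their sums were 713 to 923 CPM in Control-shRNA baseline and 729 to 1069 CPM in the knockdown, and 732 to 995 CPM and 891 to 1136 CPM with bicuculline. Of the 4 microglial markers tested, Csf1r fell by 0.66 in baseline (adjusted p = 0.0400, edgeR) and by 0.75 with bicuculline (adjusted p = 0.0259, edgeR). With bicuculline 1 astrocyte marker of 8 rose in either shRNA, Sox9, by 1.09 in Control-shRNA and 1.08 in Dnmt3a1-shRNA. GABAergic markers summed to 1745 to 2075 CPM in Control-shRNA baseline and 1375 to 1595 CPM in the knockdown. There 2 of 6 fell (Gad1 and Sst), against 8.19% of all genes, and the other 4 did not pass. After the knockdown with bicuculline 0 of 6 passed. With bicuculline 5 of the 6 GABAergic markers rose in either shRNA, against 19.5% and 20.8% of all genes, with sums of 2571 to 2941 CPM in Control-shRNA and 2245 to 2638 CPM in Dnmt3a1-shRNA. Excitatory markers summed to 1504 to 1664 CPM in Control-shRNA baseline and 1434 to 1570 CPM with bicuculline. The part of these markers in the subunit changes was not tested.

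**Figure D3:**
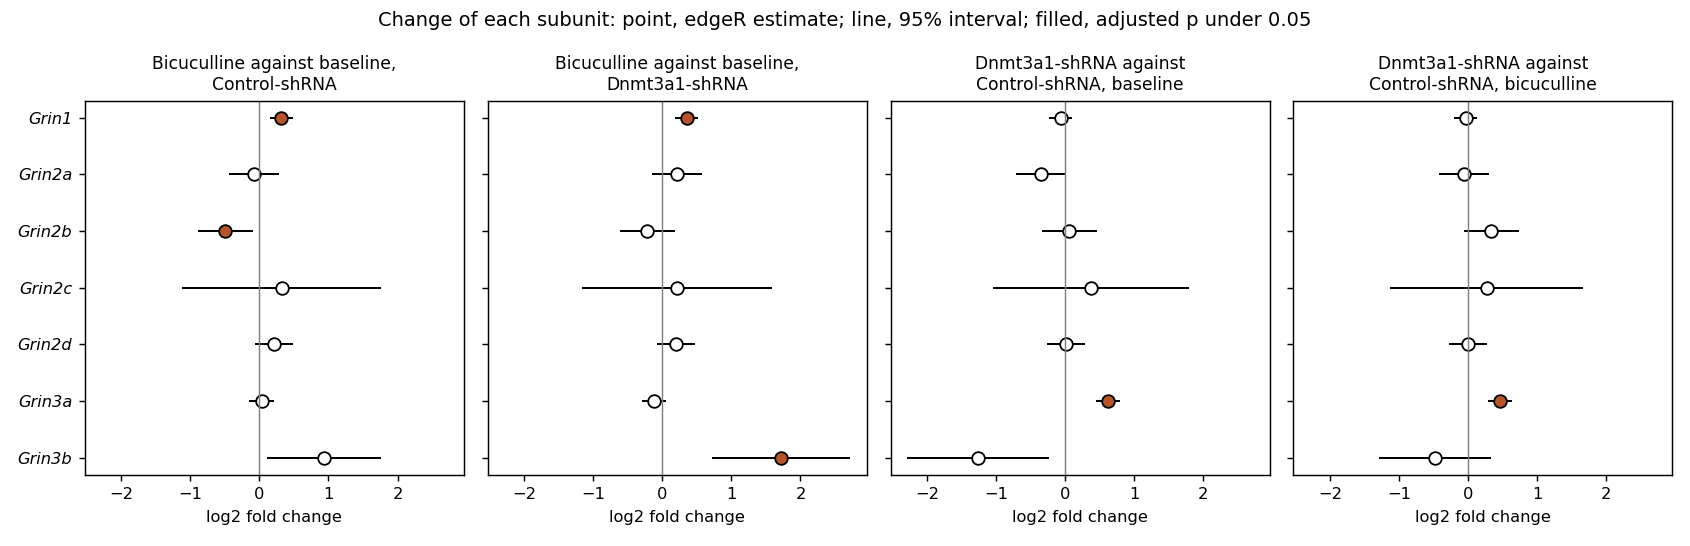
Log2 fold change of each subunit (x axis) in the 4 comparisons, with the edgeR estimate as a point, its 95% interval as a line and a filled point for an adjusted p under 0.05. The filled points are Grin1 and Grin2b in the first panel, Grin1 and Grin3b in the second and Grin3a in the third and last, and the wide lines belong to Grin2c and Grin3b.

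Ratios between subunits within a library do not depend on how libraries are scaled, and the balance of Grin2a to Grin2b is a usual measure of receptor maturation. In TPM the ratio was higher with bicuculline and lower with the knockdown, by nearly the same factor. In Control-shRNA it was 0.425, 0.447, 0.399 and 0.469 in baseline libraries 1 to 4 and 0.558, 0.528, 0.575 and 0.631 with bicuculline. In Dnmt3a1-shRNA it was 0.319, 0.308, 0.349 and 0.333 in baseline and 0.401, 0.396, 0.396 and 0.568 with bicuculline. Number 2 did not stand apart here, unlike in either gene's own level.

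The groups did not overlap in 3 of the 4 comparisons. The mean log2 ratio differed by 0.40 with bicuculline in Control-shRNA, by 0.41 with bicuculline in Dnmt3a1-shRNA and by -0.41 between the shRNAs in baseline, each with an exact two-sided permutation p of 0.0286. That is the smallest p that 4 against 4 libraries allow. Adjusted over the 8 tests of both ratios it was 0.0571, so the differences did not pass. A single ratio cannot pass here whatever its size, since passing depends on how many of the 8 tests reach the smallest p. Between the shRNAs with bicuculline the difference was -0.40 (exact permutation p = 0.0857, adjusted 0.137), with 3 of 4 knockdown libraries below all controls. With estimated counts in place of TPM the 4 differences were 0.41, 0.45, -0.42 and -0.38, each with an adjusted p of 0.0457.

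The sum of the 4 Grin2 genes relative to Grin1 gave a second balance, that of the glutamate-binding to the obligatory subunits. It was 0.350, 0.320, 0.373 and 0.340 in Control-shRNA baseline and 0.223, 0.265, 0.277 and 0.248 with bicuculline. The groups were apart, with a difference in mean log2 ratio of -0.45 (exact permutation p = 0.0286, adjusted 0.0571). In Dnmt3a1-shRNA it was 0.401, 0.282, 0.351 and 0.392 in baseline and 0.324, 0.293, 0.309 and 0.231 with bicuculline. Here the groups overlapped, and the difference of -0.30 had an exact permutation p of 0.143. Between the shRNAs the differences were 0.03 in baseline (p = 0.771, exact permutation test) and 0.18 with bicuculline (p = 0.200, exact permutation test).

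Among the Grin2 genes, Grin2b made up 51.7% ± 4.51 of the Grin2 TPM in Control-shRNA baseline and 42.8% ± 2.74 with bicuculline (SD, n = 4). In Dnmt3a1-shRNA its share was 54.6% ± 5.09 and 48.5% ± 5.29. Grin2d took 25.7% ± 5.75 in Control-shRNA baseline, close to Grin2a with 22.4% ± 1.89.

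**Figure D4:**
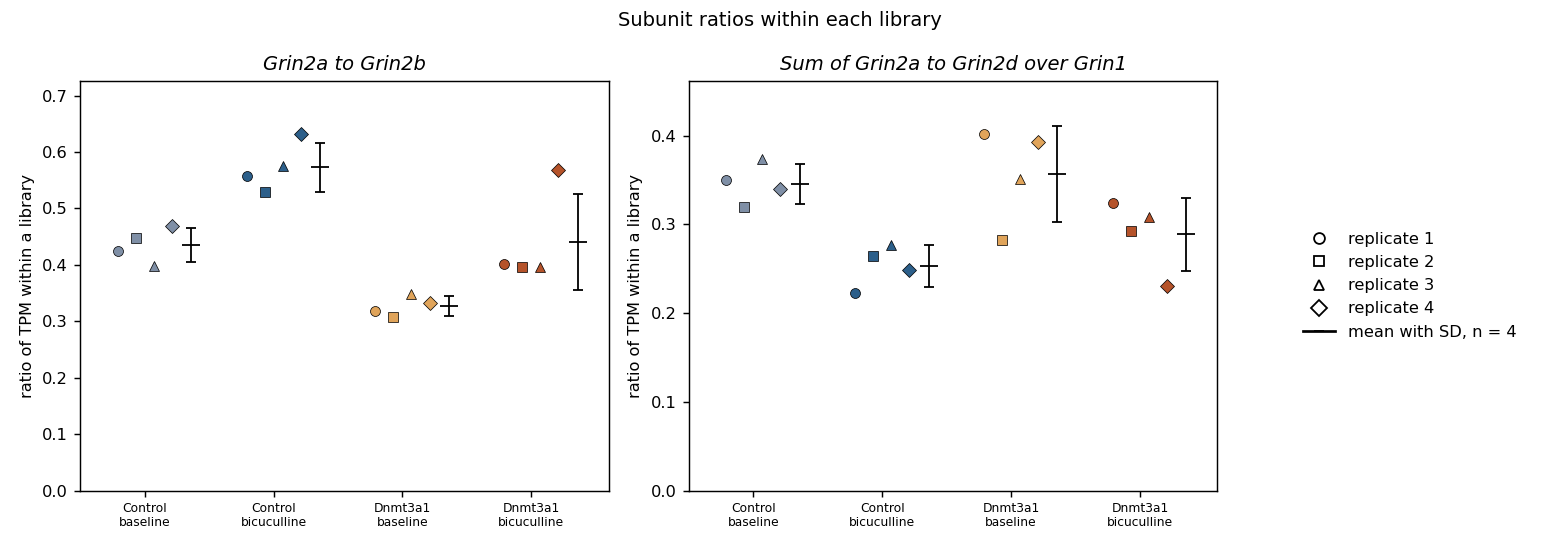
Ratio of Grin2a to Grin2b (left) and of the summed Grin2 genes to Grin1 (right), in TPM within each library, by group, with the mean and SD of 4 libraries. The left panel shows both bicuculline groups above their baseline. Each Dnmt3a1-shRNA mean is below the Control-shRNA mean of the same condition, and Dnmt3a1-shRNA bicuculline lies near Control-shRNA baseline. In Dnmt3a1-shRNA, 1 bicuculline library is at 0.568, inside the range of Control-shRNA bicuculline.

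Part of the spread of Grin2a and Grin2b followed the replicate number. Grin2b was at 368 and 349 CPM in the number 2 baseline libraries, compared with 505 to 566 CPM and 517 to 637 CPM in the other baseline libraries of Control-shRNA and Dnmt3a1-shRNA. Both genes have very long transcripts, of 14634 nt for Grin2a and 24060 nt for Grin2b at most. Over the 392 genes with a transcript of at least 10000 nt, the median deviation from a gene's mean log2 CPM was -0.15 and -0.27 in these libraries, compared with 0.02 to 0.06 and -0.000379 to 0.13 in the other baseline libraries. With bicuculline the same median lay between -0.09 and 0.02 in Control-shRNA, overlapping its baseline, and between -0.03 and 0.24 in Dnmt3a1-shRNA. The part of transcript length in these values was not tested.

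Grin2c went the other way. It was at 0.741, 0.746, 1.01 and 1.07 CPM in the number 2 libraries and at 0.606 CPM or less in all others. Markers of the oligodendrocyte lineage summed to 187 to 224 CPM in the number 2 libraries, to 174 to 225 CPM in number 3 and to 98.6 to 154 CPM in numbers 1 and 4. Their part in the Grin2c level was not tested.

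The genes whose log2 CPM followed each subunit most closely over the 16 libraries were taken from 13880 genes of at least 1 CPM, as a description, since the points share 4 groups and their libraries. Grin3a was most like Xpr1, a phosphate exporter (Pearson r = 0.983), and Dnajc5, a chaperone of synaptic vesicles (r = 0.972). Grin1 was closest to Gabbr1, a GABA-B receptor subunit (r = 0.964), and Entpd6 (r = 0.958). For Grin2a the closest were Pclo, a presynaptic scaffold (r = 0.963), and Wdfy3 (r = 0.922), and for Grin2b Birc6 (r = 0.953) and B230334C09Rik (r = 0.938). Grin2c was most like Gm48485 (r = 0.916) and Olig1, a transcription factor of the oligodendrocyte lineage (r = 0.889). Krtcap2 (r = 0.948) and Tob2 (r = 0.901) were nearest to Grin2d, and Mir670hg (r = 0.913) and Gm41442 (r = 0.911) to Grin3b. Among the members themselves, Grin3b and Grin1 had an r of 0.77, Grin2a and Grin2b one of 0.47, and Grin2a and Grin2c one of -0.69.

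The partners of the receptor were read from 5 lists, whose counts stand against the shares of all genes given above. These were 19.5% higher and 21.9% lower with bicuculline in Control-shRNA, 20.8% and 25.2% in Dnmt3a1-shRNA, 8.12% and 8.19% after the knockdown in baseline, and 7.69% and 9.99% with bicuculline. The 14 postsynaptic scaffolds comprise the Dlg proteins, which bind the C-termini of GluN2 subunits, and the Dlgap, Shank and Homer proteins behind them. Of these, 5 rose and 1 fell with bicuculline in Control-shRNA, with a median log2 fold change of 0.13. Homer1 rose by 3.34 and Dlgap2 by 1.30, while Dlg3, which encodes SAP102, fell by 0.42. In Dnmt3a1-shRNA 5 rose and 4 fell. After the knockdown in baseline 1 of 14 changed. This was Dlg4, which encodes PSD-95, and it fell by 0.67 (SE 0.05, adjusted p = 2.48e-07), from 671 ± 17.0 CPM to 421 ± 17.5 CPM. With bicuculline Dlg4 was lower by 0.76 (adjusted p = 5.52e-08) and Homer1 was higher by 0.63 (adjusted p = 0.0368).

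Among 20 genes of receptor-proximal signalling, 4 rose and 4 fell with bicuculline in Control-shRNA. Rasgrf1, a calcium-activated exchange factor, rose by 0.79 and Fyn, a kinase of GluN2 subunits, by 0.31, whereas Ptk2b fell by 0.58 and Dapk1 by 0.44. In Dnmt3a1-shRNA 1 rose and 6 fell. After the knockdown in baseline 7 rose and 3 fell, against 8.12% and 8.19% of all genes, with a median of 0.11 beside 0.01 over all genes. Camk2d rose by 0.63 (adjusted p = 1.64e-05), and Nos1, neuronal nitric oxide synthase, by 0.47 (adjusted p = 0.00607), and Dapk1 and Ptk2b fell by 0.28 and 0.26. With bicuculline 5 rose and 3 fell.

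Of 14 genes for trafficking and binding proteins, 1 rose and 4 fell with bicuculline in Control-shRNA, near the background for lower genes, with Nefl at 1.25, Ephb2 at -0.53 and Actn2 at -0.35. In Dnmt3a1-shRNA 2 rose and 6 fell. In the knockdown 3 rose and 2 fell in baseline, and 2 rose and 3 fell with bicuculline. Lin7c, an adaptor of the complex that is carried with NMDA receptor vesicles, rose by 0.55 in baseline (adjusted p = 6.75e-04) and Cask by 0.27. Kif17, the motor that carries GluN2B, fell by 0.46 and Neto1, an auxiliary protein, by 0.41.

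Co-agonist supply comprised 12 genes, of which 11 were tested and Dao was not. With bicuculline 5 rose in Control-shRNA, among them the serine and glycine enzymes Shmt2 (0.65) and Psph (0.60) and, under 1 CPM, the glycine transporter Slc6a5 (1.06), and 4 rose in Dnmt3a1-shRNA. After the knockdown 2 rose in baseline, Gldc of the glycine cleavage system by 0.58 and the transporter Slc1a4 by 0.39. With bicuculline 1 rose and 1 fell, the latter being Srr, which makes D-serine, at -0.15 (adjusted p = 0.0342).

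The last list held the 11 other ionotropic glutamate receptor genes. With bicuculline in Control-shRNA, Grik1 rose by 0.47 and Gria2 fell by 0.33. In Dnmt3a1-shRNA 2 rose and 3 fell. After the knockdown with bicuculline 1 rose and 1 fell. None of the tested genes of the 5 lists passed the interaction test by edgeR.

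**Figure D5:**
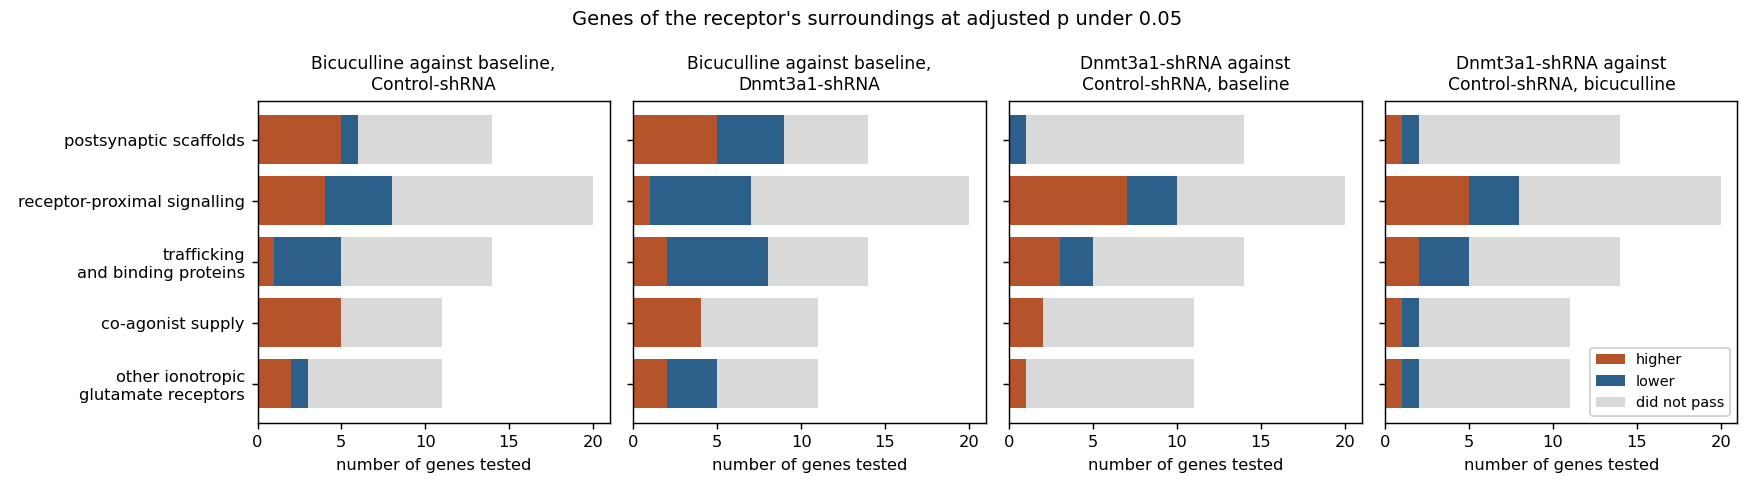
Number of tested genes of 5 lists around the receptor (x axis) that were higher, lower or did not pass at an adjusted p under 0.05, in the 4 comparisons. Scaffolds and signalling genes changed in both directions with bicuculline, and after the knockdown in baseline the signalling list had 7 higher and 3 lower and the scaffold list 1 lower.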

How the data were processed

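RNA of 16 libraries from primary hippocampal cultures was sequenced by the authors as 100 bp paired-end reads on BGISEQ-500, trimmed with Trim Galore 0.6.4 and quantified with kallisto on GRCm38.p6. For each gene and library, the authors deposited estimated counts beside TPM. The kallisto version is 0.4.6 in the submitters' processing notes. Of 55385 identifiers, 55144 matched GENCODE M21 without the version.

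Estimated counts were rounded, scaled by TMM and tested in 1 edgeR 4.0.16 quasi-likelihood fit of the 4 groups (R 4.3.3), after edgeR's filter on low counts, which left 17222 genes. All 7 members passed it. Benjamini-Hochberg adjustment ran over every gene in the fit. TPM ratios were compared by exact two-sided permutation tests, adjusted over 8 tests. Alternatives included voom with limma 3.58.1, DESeq2 1.42.0, other scalings and filters, limma on log2 TPM, the replicate number as a block and each library left out. The fit was tested on simulated data.

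The members and gene lists were chosen with earlier results of these data known. Genes named beside the members are, for each list, up to 2 per direction with the largest change at an adjusted p under 0.05 and at least 1 CPM in Control-shRNA with bicuculline and in baseline after the knockdown, genes of the marker lists that moved, and the 2 genes most correlated with each member. A gene named by this rule is not reported here. Homer1 and Srr with bicuculline after the knockdown were named after their values were seen. Slc6a5, under 1 CPM, was named outside this rule.

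Replicate numbers recur across the groups, and no label says what a number marks. Taken as departures from the mean of each group, libraries sharing a number correlated at r = 0.142 to 0.221 for Control-shRNA with and without bicuculline and 0.204 to 0.355 for the knockdown in baseline, so the blocked values stand beside these results. The lowest r was 0.0631 in Dnmt3a1-shRNA and 0.0667 with bicuculline. Libraries of a group all differed by more than counting noise, with chi-square over its degrees of freedom at least 7.96. The estimated counts carry counting error that depth alone sets for Grin2c and Grin3b.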

Additional observations from a re-analysis of the deposited data

Results flagged for a closer look

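In Control-shRNA bicuculline, replicate 4 lay below the other libraries for Grin2b, at 306.23 CPM, with a gap of 0.887 of the range of the group. Without it the fall of Grin2b with bicuculline was 0.45 on the log2 scale, with an adjusted p of 0.0803 (edgeR). In Dnmt3a1-shRNA bicuculline, replicate 4 lay above the others for the ratio of Grin2a to Grin2b, at 0.56813 in TPM, with a gap of 0.97 of the range. Grin2b had 9355 counts and 25.2 TPM in this library, beside 9933 counts and 33.9 TPM in replicate 2. Grin2a had 3095 counts and 14.3 TPM, beside 2863 counts and 13.4 TPM. The part of length scaling in this gap was not tested. The 2 flagged libraries came from 36 groups of 4 libraries examined with Dixon's test, which flags about 1 in 20 groups by chance.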

How the results depend on the processing

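The rise of Grin3a after the knockdown passed under every alternative run in baseline, and with bicuculline under all but a log2 fold change over 0.5 as well. The number of members changed was 2 with bicuculline in Control-shRNA, 2 with bicuculline in Dnmt3a1-shRNA, and 1 after the knockdown in either condition, and it moved as follows. In Control-shRNA it was 1 in limma on log2(TPM + 1) or log2(TPM + 0.1), 0 past a log2 fold change of 0.5, 4 with the replicate block, and 3, with Grin3b, in voom with limma and with DESeq2 size factors in edgeR. In Dnmt3a1-shRNA it was 1 with at least 10 counts in every library, in limma on either log2 TPM, with only the groups compared (Grin3b then being filtered out) and past the fold threshold, and 3, with Grin3a, with library sizes only and without number 2. After the knockdown in baseline it was 2 with library sizes only and 3 with the replicate block, and with bicuculline it was 0 past the fold threshold. In Dnmt3a1-shRNA the block gave 3. Among all genes, the block called 8756 with bicuculline in Control-shRNA, 9398 in Dnmt3a1-shRNA, 4743 after the knockdown in baseline and 5158 with bicuculline. Without the block these were 7131, 7919, 2809 and 3046 genes. Leaving out 1 library gave 1 to 3, 2 to 3, 1 to 2 and 1 to 1 members in the same order, and 0 to 0 for the interaction. The block added Grin2d and Grin3b with bicuculline in Control-shRNA, Grin2d (0.20, adjusted p = 0.0451 in edgeR) in Dnmt3a1-shRNA, and Grin2a and Grin3b after the knockdown in baseline, and changed no other call of a member. After the knockdown Grin3b was in the test only through groups where it was higher. A block on the ratios, by sign changes of 4 paired differences, left their values as they were, at 0.40, 0.41, -0.41, -0.40, -0.45, -0.30, 0.03 and 0.18, and cannot give a p under 0.125. Library sizes alone shifted the median of all genes by -0.15 with bicuculline in Control-shRNA. With them, 73.5% of calls in Control-shRNA were lower, against 53.0% with TMM, and the shares were 71.7% against 54.8% in Dnmt3a1-shRNA, 73.1% against 50.2% for the knockdown in baseline and 74.8% against 56.5% with bicuculline.

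Ratios with estimated counts in place of TPM crossed the threshold at 0.41, 0.45, -0.42 and -0.38 for Grin2a to Grin2b and at -0.64 for the Grin2 sum to Grin1 with bicuculline in Control-shRNA. Leaving out 1 library, with which the exact permutation test cannot pass the threshold, kept the direction of all ratios but that of the Grin2 sum to Grin1 between the shRNAs in baseline, which ran from -0.0269 to 0.14. The order of the levels was the same with counts per kb.

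Some values that had not passed changed sign, and the cause was not tested. Grin2d between the shRNAs with bicuculline was 0.0149 with voom, 0.0124 with DESeq2 and with its size factors in edgeR, and 0.0116 with the replicate block. With library sizes only, Grin3a with bicuculline in Control-shRNA was -0.12, and Grin2b and Grin2d after the knockdown in baseline were -0.0260 and -0.0692. In limma on log2(TPM + 1) these 3 were -0.15, -0.0703 and -0.0655, and the interaction was 0.0125 for Grin2c, 0.00259 for Grin2d and -0.0214 for Grin3b, against 0.78 in edgeR. In limma on log2(TPM + 0.1) the 3 were -0.16, -0.0720 and -0.0679, and the interaction of Grin2d was 0.00315. With only the groups compared, Grin2d in baseline was -0.00113. Without number 2 in any group, an alternative added after the data were seen, Grin3a with bicuculline in Control-shRNA was -0.0131, the interaction of Grin2d 0.0780, and Grin1 and Grin2d between the shRNAs with bicuculline 0.0192 and 0.11.

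Sign changes on leaving out 1 library are given as ranges. Grin2c ran from -0.0242 to 0.95 with bicuculline in Control-shRNA, from -0.35 to 0.91 in Dnmt3a1-shRNA, from -0.32 to 1.01 after the knockdown in baseline, from -0.29 to 0.62 with bicuculline and from -0.74 to 0.59 for the interaction. Grin2d ran from -0.0506 to 0.0991 after the knockdown in baseline, from -0.0993 to 0.13 with bicuculline and from -0.11 to 0.11 for the interaction. Grin1 and Grin2a ran from -0.0684 to 0.0226 and from -0.18 to 0.00782 between the shRNAs with bicuculline, Grin1 from -0.00660 to 0.0898 for the interaction, and Grin2b from -0.0609 to 0.21 after the knockdown in baseline. Depth limits Grin2c and Grin3b, with at most 31 counts per library.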
